A study of Mus musculus with 18 samples.

Results

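The interferon response genes described here are 41 listed mouse genes that interferons induce, or whose products carry the interferon signal, measured in liver. They were taken as all non-control probes of the array whose gene name in the scanner output is one of the listed symbols. Of the 41 genes, 39 had a probe under the listed name (50 probes) and 37 could be tested, among 15951 genes tested on the array. Bst2 and Trim25 had a probe but were not tested, as the image software marked their spots on too many arrays. The match by name used no expression value, but the list of genes was chosen with earlier results of these data known. The livers came from 18 males of the inbred strain C57BL/6J, each read on its own 1-colour Agilent array. At 8 weeks of age the mice were assigned at random to a high-fat diet with linseed oil (8 mice) or with palm oil (10 mice), which they ate for 5 weeks, and they were 13 weeks old at the end. Both diets gave 51.1% of energy as lipid, 32.1% as carbohydrate and 16.7% as protein, and no group had a standard diet. Linseed fat held 66.7% polyunsaturated fatty acids, 49.7% being alpha-linolenic acid, with 22.5% monounsaturated and 9.7% saturated fatty acids. Palm fat held 8.8% polyunsaturated, 34.8% monounsaturated and 55.6% saturated fatty acids. The comparison asks how liver expression of these genes differs between the fats.

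Interferons are secreted proteins that alert cells to viruses and other microbes. Type I and type III interferons signal through the kinases JAK1 and TYK2 to a complex that holds STAT2 and IRF9 and binds interferon-stimulated response elements in the promoters of target genes. Interferon gamma, the type II interferon, signals through JAK1 and JAK2, acts on a different promoter element and induces many of the guanylate-binding proteins and immunity-related GTPases. In liver, hepatocytes, Kupffer cells and sinusoidal endothelium all respond to interferons, and a low level of these transcripts is present without infection.

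Promoters of several members show what these genes share in sequence. RefSeq promoter windows (GRCm38.p6, 250 bases before to 50 after the start of transcription) were available for 30 of the 39 genes with a probe; Dhx58, Zbp1, Usp18, Mx1, Mx2, Parp14, Rtp4, Gbp6 and Iigp1 had no entry. A pair of GAAA words with 2 bases of any kind between them, the core of an interferon-stimulated response element, was searched on both strands. It occurred in 15 of the 30 members (50%), against 3.99% of the 27025 genes with a window of the same length. Among those 15 genes, 12 had it before the start, and Ddx58, Ifih1 and Ifitm3 after it only. The letters TTCNNNGAA, which read the same on both strands and are the form of a gamma-activated site, occurred in 9 of 30 members (30.0%) against 9.55% of all genes. The 2 kinds of match overlapped in 2 member windows. A match is a description of the letters and not a measured binding site. The stretches below are from the windows of 8 members whose values follow; they are written 5′ to 3′ on the strand of the gene, all before the start, with the GAAA pair (a TTTC pair where it lies on the other strand) in capitals.
Oas1a (GRCm38.p6 chr5:120907526-120907564, minus strand): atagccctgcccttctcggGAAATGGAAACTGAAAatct
Isg15 (chr4:156200850-156200909, minus strand): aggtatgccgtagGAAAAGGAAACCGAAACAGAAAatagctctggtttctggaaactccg
Ifit1 (chr19:34640779-34640838, plus strand): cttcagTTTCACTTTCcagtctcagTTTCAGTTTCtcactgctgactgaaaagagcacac
Ifit3 (chr19:34583382-34583441, plus strand): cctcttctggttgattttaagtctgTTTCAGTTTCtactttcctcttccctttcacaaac
Stat2 (chr10:128270251-128270310, plus strand): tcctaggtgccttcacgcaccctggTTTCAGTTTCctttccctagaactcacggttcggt
Gbp3 (chr3:142559980-142560039, plus strand): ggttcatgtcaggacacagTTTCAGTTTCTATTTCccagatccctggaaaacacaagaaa
Igtp (chr11:58199497-58199555, plus strand): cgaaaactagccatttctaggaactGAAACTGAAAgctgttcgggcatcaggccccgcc
Irgm2 (chr11:58214888-58214947, plus strand): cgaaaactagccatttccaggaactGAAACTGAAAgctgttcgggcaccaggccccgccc
Isg15, Oas1a and Gbp3 carried overlapping repeats of the motif, Ifit1 and Ifit3 separate copies, of which the printed stretch of Ifit3 shows 1 in full. The stretches of Igtp and Irgm2, neighbouring GTPase genes on chromosome 11, differed at 2 of 59 bases.

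No interferon response gene passed the test between the diets with no term for slide. With slide as a fixed block, 2 of them, Oas1a and Usp18, did (adjusted p = 0.0251 and 0.0462, limma), against 131 of all 15951 genes. Values are log2 of the spot signal relative to the array's 75th percentile, and differences are linseed minus palm, ± SE from limma, with p adjusted by Benjamini-Hochberg over all genes tested. Of the 15951 genes, 121 passed with no slide term at an adjusted p of 0.05 (0.759%). More signal on linseed oil was found for 91 (0.57%) and less for 30 (0.188%). Of the 37 members 0 passed; the lowest adjusted p was 0.157 (Ifi44). The members nevertheless lay mostly on the lower side: 29 of 37 had a difference below 0, against 51.3% of all genes, and their median difference was −0.22, against −0.0038 over all genes. The range ran from −0.48 (Ifi44) to 0.17 (Zbp1). Without adjustment for multiple tests, p was under 0.05 for 14 members, all lower on linseed oil, and for 0 members higher on linseed oil. Among all genes 4.15% were lower and 6.01% higher at that level. The 14 became 8 with normexp background correction (1.79% of all genes lower), 8 with median scaling (2.41%), 9 without linseed replicate 7 (3.71%) and 5 without the arrays of slide 4 (3.53%). Ifit2 and Mx1 were well above background on fewer linseed than palm arrays. Both were missing from the 34 members well above background on all arrays, and so was Ifitm3, a bright gene with marked spots on 1 array. Of those 34, 26 were below 0, with a median of −0.21 and 12 lower at an unadjusted p under 0.05 (limma, 4.03% of all genes in that setting). With normexp, 13 members had a difference of the same sign but over 1.5 times smaller, Ifi44, Ifit1 and Oasl2 among them. Members vary together between arrays, as described below, so they are not independent of each other. In no member were the diets without overlap; of all genes, 0.0627% were lower and 0.157% higher on linseed oil without overlap. In whole liver RNA, fewer cells of a kind and less RNA per cell cannot be told apart. The median difference of the members was below 0 in 39 of 39 other settings of the processing, between −0.12 and −0.26.

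**Figure D1:**
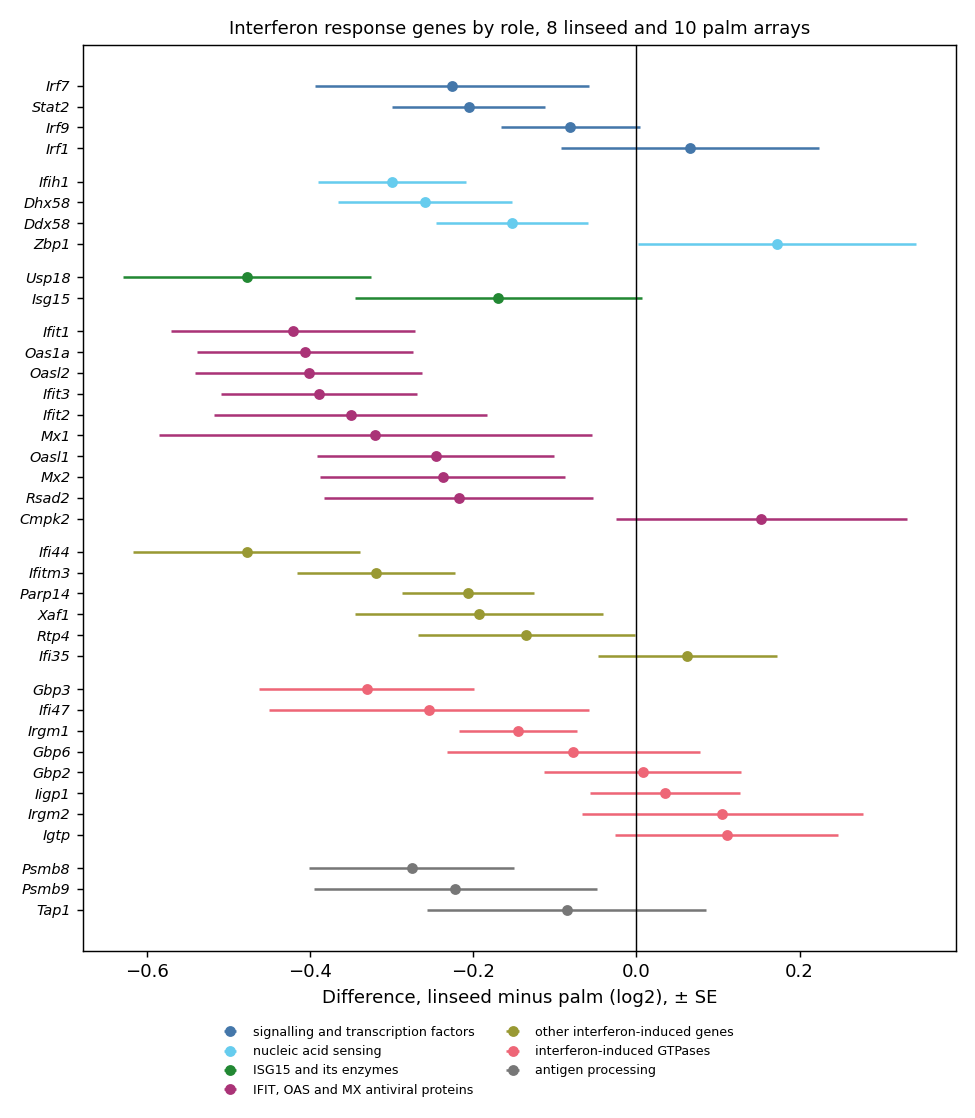
Difference between diets (linseed minus palm, log2, x axis) with its SE for each of the 37 tested genes, grouped and coloured by role. Most genes lie left of 0, those of the IFIT, OAS and MX group at a median of −0.34, while the GTPases lie around 0 (median −0.03); no gene passed the adjusted test with no slide term.

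The signalling and transcription factors lay near or slightly below the palm level on linseed oil. Irf7, the transcription factor that amplifies type I interferon production, ranged from −0.87 to 0.28 on linseed oil (median −0.50) and from −0.56 to 0.29 on palm oil (median −0.05). The lowest 4 linseed arrays lay below every palm array, and the others lay within the palm range. Its difference was −0.23 ± 0.17 (adjusted p = 0.712). Stat2, the subunit of the type I signalling complex that activates transcription, ranged from 1.66 to 2.34 on linseed oil (median 1.91) and from 1.89 to 2.53 on palm oil (median 2.13). Linseed values were below the palm median on 7 of 8 arrays, with overlap, and the difference was −0.21 ± 0.09 (adjusted p = 0.467). Irf9, the DNA-binding subunit of that complex, ranged from 1.87 to 2.49 (median 2.27) against 2.11 to 2.63 (median 2.34). The ranges of Irf9 overlapped almost entirely, at a difference of −0.08 ± 0.09 (adjusted p = 0.817). Irf1, a transcription factor induced most by interferon gamma, differed by 0.07 ± 0.16 (adjusted p = 0.934).

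Among sensors of nucleic acids, the RNA helicases were lower in value on linseed oil and the DNA and RNA sensor Zbp1 was higher, none of them past the adjusted test. Ifih1, which encodes the sensor of long double-stranded RNA MDA5, ranged from 0.73 to 1.23 on linseed oil (median 1.14) and from 1.00 to 1.65 on palm oil (median 1.41). All 8 linseed arrays lay below the palm median, although only 1 lay below the lowest palm array. The difference was −0.30 ± 0.09, or 1.23-fold lower (adjusted p = 0.184). The tested Ifih1 probe lies on chromosome 2 from 62435507 to 62435566 in mm9, the build of the array annotation. Dhx58, the regulator LGP2 of the same helicase family, differed by −0.26 ± 0.11 (adjusted p = 0.389) and was below the palm median on 8 of 8 linseed arrays. Ddx58, the sensor RIG-I, differed by −0.15 ± 0.09 (adjusted p = 0.626). Zbp1, a sensor that can start cell death, differed by 0.17 ± 0.17 (adjusted p = 0.802). Trim25, the ubiquitin ligase that activates RIG-I, was not tested because the image software marked its 1 spot on all 18 arrays; with marked spots kept it was at 0.09 ± 0.07 (adjusted p = 0.752).

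ISG15 is a ubiquitin-like protein that is attached to other proteins after interferon, and USP18 removes it and also restrains the type I receptor. Usp18 ranged from 0.09 to 1.16 on linseed oil (median 0.69) and from 0.71 to 1.62 on palm oil (median 1.00). Of the linseed arrays 4 lay below every palm array, and 1 was above the palm median. The difference was −0.48 ± 0.15, or 1.39-fold lower (adjusted p = 0.215, and 0.0462 once slide was a fixed block), at a probe on chromosome 6 from 121220874 to 121220933 (mm9). Isg15 itself ranged from 2.12 to 3.1 on linseed oil (median 2.41) and from 2.13 to 3.44 on palm oil (median 2.55). Its ranges overlapped almost fully, and the difference was −0.17 ± 0.18 (adjusted p = 0.815). A second Isg15 probe gave −0.18 and followed the first across arrays (r = 0.968 within diets, a description over 18 arrays). Herc6, the mouse ligase for ISG15, had no probe under that name, but probes that the array names Herc5 are Herc6 by RefSeq accession. The brighter differed by −0.01 ± 0.17 (adjusted p = 0.989) and the other by −0.34 ± 0.14. They were dim, being well above background on 5 and 6 of 8 linseed arrays and on 9 of 10 palm arrays each.

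The IFIT, OAS and MX antiviral proteins had 9 of 10 genes below 0, with a median of −0.34. Without Ifit2 and Mx1, which were not well above background on every array, 7 of 8 were below 0, with a median of −0.32. IFIT proteins bind foreign RNA. Ifit3 ranged from −0.22 to 0.45 on linseed oil (median 0.17) and from −0.05 to 0.88 on palm oil (median 0.54), and 8 of 8 linseed arrays lay below the palm median. The difference of Ifit3 was −0.39 ± 0.12, or 1.31-fold lower (adjusted p = 0.194), at a probe on chromosome 19 from 34663105 to 34663164 (mm9). Ifit1 ranged from −2.21 to −1.08 on linseed oil (median −1.87) and from −1.78 to −0.90 on palm oil (median −1.28). On 5 of 8 linseed arrays Ifit1 lay below every palm array, and the difference was −0.42 ± 0.15 (adjusted p = 0.295), but −0.17 with normexp and −0.26 in the authors' deposited table. Ifit2 differed by −0.35 ± 0.17 (adjusted p = 0.492; −0.10 with normexp) and was well above background on 4 of 8 linseed and 10 of 10 palm arrays.

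OAS enzymes make a second messenger that activates RNase L. Oas1a ranged from 1.09 to 2.04 on linseed oil (median 1.44) and from 1.57 to 2.35 on palm oil (median 1.85). The linseed arrays were split: 6 lay below every palm array, and the other two lay above the palm median. The difference was −0.41 ± 0.13, or 1.33-fold lower (adjusted p = 0.232, and 0.0251 once slide was a fixed block). The tested Oas1a probe lies on chromosome 5 from 121346735 to 121346794 (mm9), and a second probe gave −0.36. Oasl2 differed by −0.40 ± 0.14 (adjusted p = 0.275; −0.18 with normexp) and Oasl1 by −0.25 ± 0.15 (adjusted p = 0.610). Mx1, a GTPase that blocks viral ribonucleoproteins, was dim and the most variable member. It ranged from −4.33 to −2.59 on linseed oil (median −3.34) and from −4.31 to −2.24 on palm oil (median −3.18), and was well above background on 4 linseed and 9 palm arrays. The overlap was nearly complete, with a difference of −0.32 ± 0.27 (adjusted p = 0.750). Mx2 differed by −0.24 ± 0.15 (adjusted p = 0.643) and Rsad2, the antiviral enzyme viperin, by −0.22 ± 0.17 (adjusted p = 0.719). Cmpk2, a nucleotide kinase of mitochondria encoded next to Rsad2, was the group's 1 gene above 0. It ranged from −2.40 to −1.22 on linseed oil (median −1.95) and from −2.75 to −1.54 on palm oil (median −2.07), with overlap and a difference of 0.15 ± 0.18 (adjusted p = 0.841).

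**Figure D2:**
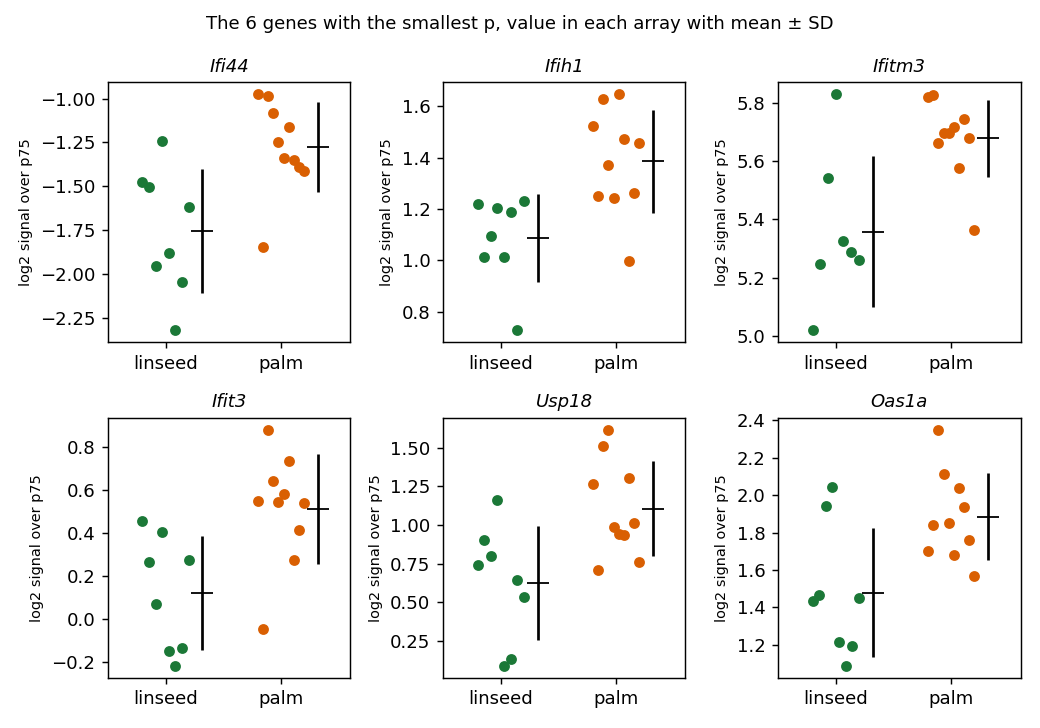
Log2 value relative to the array's 75th percentile (y axis) in each linseed and palm array for the 6 genes with the smallest p, with mean ± SD beside the points. The diets overlap in every panel; all 8 linseed values of Ifih1 and Ifit3 lie below the palm medians of 1.41 and 0.54.

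Other interferon-induced genes included the member with the smallest p. Ifi44, an antiviral protein associated with microtubules, ranged from −2.32 to −1.25 on linseed oil (median −1.75) and from −1.85 to −0.97 on palm oil (median −1.29). Below every palm array lay 4 of 8 linseed arrays, and the lowest palm array, replicate 2, stood apart from the others of its diet. The difference was −0.48 ± 0.14, or 1.39-fold lower (adjusted p = 0.157), at a probe on chromosome 3 from 151394035 to 151394094 (mm9). It was −0.20 with normexp and −0.26 in the authors' deposited table. Ifitm3, a membrane protein that blocks viral entry, ranged from 5.02 to 5.83 on linseed oil (median 5.29, 7 arrays, its spots on 1 array being marked) and from 5.36 to 5.82 on palm oil (median 5.70). Of these 7 linseed arrays 5 lay below every palm array, but the highest, replicate 4, was as high as the highest palm array. The difference of Ifitm3 was −0.32 ± 0.10, or 1.25-fold lower (adjusted p = 0.187). Without linseed replicate 4 it was −0.40 ± 0.08 and passed (limma, adjusted p = 0.0387), with 86 of all 15469 genes in that fit. Leaving out the highest linseed array had to move the difference further below 0. Ifitm3 passed in 1 of 34 other settings. Parp14, an ADP-ribosyltransferase, differed by −0.21 ± 0.08 (adjusted p = 0.354), Xaf1, a pro-apoptotic protein, by −0.19 ± 0.15 (adjusted p = 0.731), Rtp4, a receptor chaperone, by −0.14 ± 0.13 (adjusted p = 0.802) and Ifi35 by 0.06 ± 0.11 (adjusted p = 0.901). Bst2 (tetherin), which holds virions on the cell surface, had unmarked spots on 5 linseed and 7 palm arrays and was not tested; with marked spots kept it was at 0.08 ± 0.14 (adjusted p = 0.893). Ifi27 had no probe under that name, and the probe that is Ifi27 by accession was measured on too few arrays (−0.07 ± 0.12 with marked spots kept, adjusted p = 0.896).

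The interferon-induced GTPases, which attack the vacuoles of intracellular microbes and are typical targets of interferon gamma, were split evenly, with 4 of 8 below 0 and a median of −0.03. Gbp3 differed by −0.33 ± 0.13 (adjusted p = 0.367) and had the group's smallest p. Ifi47 was the most variable of them. It ranged from 1.12 to 2.61 on linseed oil (median 2.11) and from 1.86 to 3.00 on palm oil (median 2.16). Its ranges overlapped, with 3 linseed arrays below every palm array, and the difference was −0.25 ± 0.20 (adjusted p = 0.725). Irgm1 differed by −0.14 ± 0.07 (adjusted p = 0.523). Irgm2 differed by 0.11 ± 0.17 (adjusted p = 0.892) and Igtp by 0.11 ± 0.14 (adjusted p = 0.848), the pair whose promoter stretches are nearly the same. Gbp2 (0.01 ± 0.12, adjusted p = 0.992) and Iigp1 (0.04 ± 0.09, adjusted p = 0.939) had values near 0 whose sign turned in other settings, scaling over unmarked spots among them (−0.03 and −0.005), and a second Iigp1 probe gave −0.07. The tested probe named Gbp6 differed by −0.08 ± 0.15 (adjusted p = 0.916), and by its RefSeq accession it measures Gbp7. Another probe named Gbp6, which is Gbp6 by accession, was well above background on 0 linseed and 0 palm arrays and was not kept. Probes named Mpa2l on the array are Gbp6 by accession too. The brighter of them differed by −0.33 ± 0.21 (adjusted p = 0.645) and the other by −0.23 ± 0.22. Signal shared between near-identical family members was not checked for these probes.

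Antigen processing genes, which interferons induce to supply peptides to MHC class I, were all below 0. Psmb8, a catalytic subunit of the immunoproteasome, ranged from 1.76 to 2.63 on linseed oil (median 2.39) and from 2.38 to 3.18 on palm oil (median 2.56). Linseed values were below every palm array on 3 of 8 arrays and within the palm range on the rest, and the difference was −0.28 ± 0.13 (adjusted p = 0.467). Psmb9, another such subunit, differed by −0.22 ± 0.17 (adjusted p = 0.726), and Tap1, a subunit of the peptide transporter, by −0.09 ± 0.17 (adjusted p = 0.916).

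The arrays lay on 5 slides, each with both diets, and the members' level differed between slides. The mean of the 37 members, as a deviation from its mean over all arrays, ranged from −0.38 to 0.22 on linseed oil (median −0.12) and from −0.15 to 0.44 on palm oil (median 0.02). Below every palm array lay 4 of 8 linseed arrays, and 2 palm arrays lay above every linseed array. Slide accounted for 66.3% of the variance of this mean within diets; taken gene by gene, it accounted for 44.1% in the median member and 38.0% in the median gene of the array. With diet means removed, the slide averages were 0.09, 0.24, −0.11, −0.17 and −0.11 for slides 1 to 5. The 8 arrays of slides 1 and 2 had fewer spots marked by the image software (238 to 424) and more probes above background (20108 to 22445) than the 10 arrays of slides 3 to 5 (556 to 1703 marked spots, 17258 to 20279 probes above background). On slides 1 and 2 the member mean was above its diet mean on 7 of 8 arrays, and on slides 3 to 5 on 1 of 10. The part of array quality in this was not tested.

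Within slides, the members lay mostly lower on linseed oil on 4 slides and not on slide 1. The median member difference was 0.02 on slide 1, −0.27 on slide 2, −0.23 on slide 3, −0.32 on slide 4 and −0.15 on slide 5. Lower on linseed oil were 16 of 37 members on slide 1, 32 on slide 2, 25 on slide 3, 34 on slide 4 and 28 of 36 on slide 5. Members below 0 on each of the 5 slides numbered 8 of the 36 measured on all of them, against 5.84% of 15194 genes; those named above among them are Ifi44, Ifih1, Usp18, Oas1a, Parp14, Dhx58, Psmb8 and Oasl1. With slide as a fixed block, the 2 members that passed were both lower on linseed oil: Oas1a (−0.44 ± 0.08, adjusted p = 0.0251) and Usp18 (−0.53 ± 0.11, adjusted p = 0.0462). In the same fit 131 of all 15951 genes passed, 38 of them lower on linseed oil. With slide as a random block 0 members passed, with 16 lower and 0 higher at an unadjusted p under 0.05 (limma; 5.62% of all genes were lower at that level in the same fit), and Oas1a had an adjusted p of 0.0562. Oas1a also passed without the arrays of slide 2 (−0.49 ± 0.09, adjusted p = 0.0324).

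**Figure D3:**
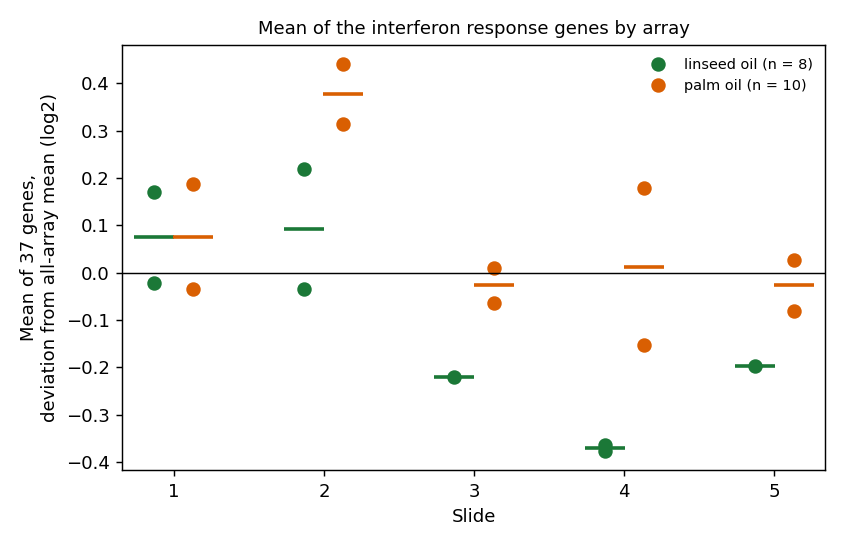
Mean of the 37 tested genes on each array as a deviation from its mean over all 18 arrays (log2, y axis), by slide (x axis) and diet; short bars are diet means within a slide. Linseed arrays lie lowest on slides 3 to 5, 3 of the 4 arrays of slide 2 lie above all others (0.22 to 0.44), and on slide 1 the diet means coincide (difference −0.0018).

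Within each diet the members varied together between mice. Each gene's deviations from its diet mean were correlated between pairs of genes, as a description with no test, since the points share slides. Over the 666 pairs of members the median Pearson r was 0.445, and 95.5% of pairs were above 0. Over all pairs of tested genes the median was −0.0017 and 49.8% were above 0. The median was 0.454 in the 8 linseed arrays alone and 0.480 in the 10 palm arrays alone. With slide means removed as well it was 0.286, against 0.0038 for all genes. The size depended on the scaling: with normexp background correction it was 0.306 (all genes 0.0026), and with the 75th percentile taken over unmarked spots it was 0.312, where all gene pairs stood at 0.292, so that the members were then little apart from other genes.

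Single arrays carried the pattern for nearly all members at once. On linseed replicate 4, 36 of 37 members lay above their diet mean, on palm replicate 3, 35, and on palm replicate 4, 34; these 3 arrays are on slide 2. On linseed replicate 7, 2 of 37 members lay above the diet mean, on linseed replicate 6, 6, and on palm replicate 8, 7, all on slide 4. The mean deviation of the members on these 6 arrays ran from −0.27 to 0.36. Leaving out any 1 array kept the median r between 0.408 and 0.480, and it was 0.357 without the arrays of slide 2.

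**Figure D4:**
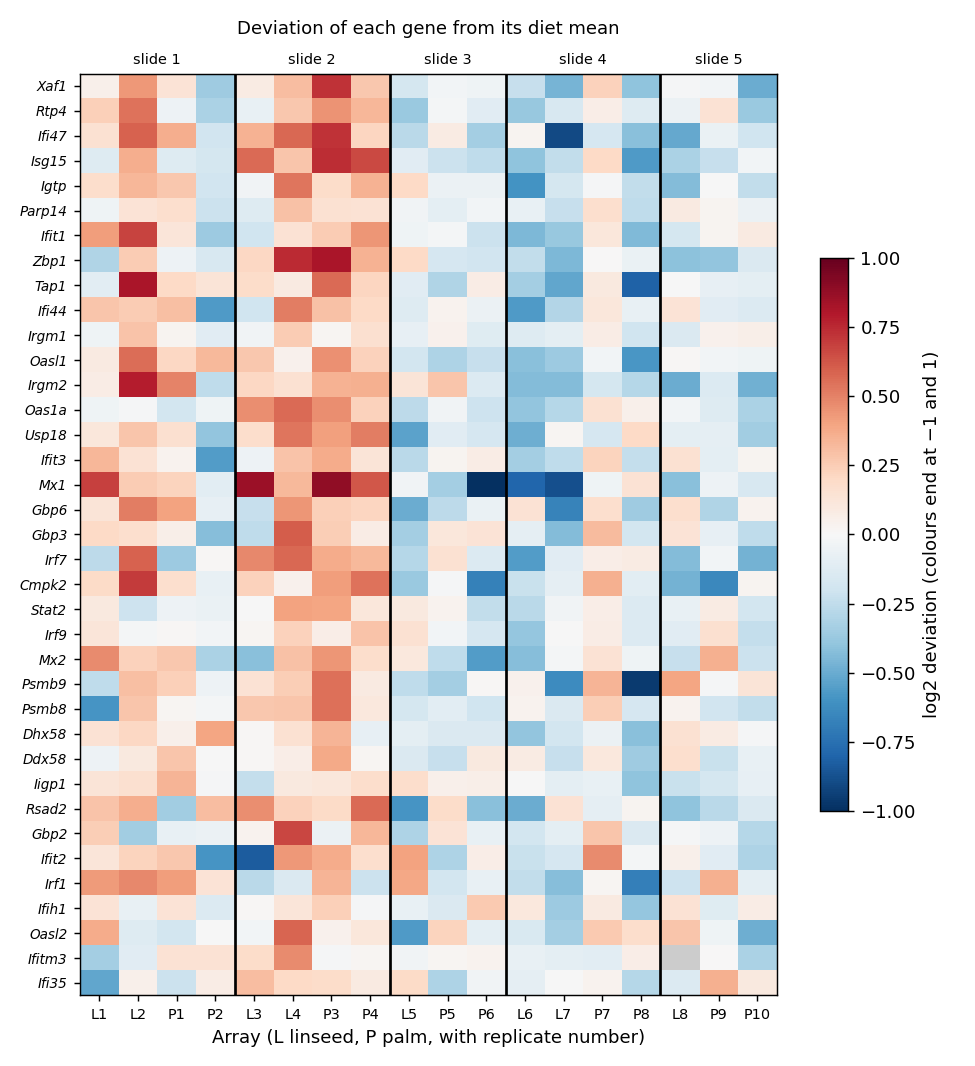
Deviation of each gene from its diet mean (colour, log2) on each array, with arrays ordered by slide and genes by their correlation with the mean of the other members, highest on top. Most genes are above 0 on slide 2 and below 0 on linseed replicates 6 and 7 and palm replicate 8; grey marks a value left out.

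Xaf1 followed the mean of the other members most closely (r = 0.915, or 0.884 with slide means removed). Next to it came Rtp4 (0.840, or 0.776 likewise), Ifi47 (0.834, or 0.560) and Isg15 (0.822, or 0.567). Ifi35 (0.212), Ifitm3 (0.256) and Oasl2 (0.405) followed the mean of the other members least. Ifitm3 and Ifih1 (0.424) were among the 6 genes with the smallest p and among the 4 with the lowest r. By contrast, Igtp and Zbp1 had r of 0.80 and 0.774 with diet differences above 0. The order depended on slide: with slide means removed, Ifitm3 (−0.197), Rsad2 (−0.133) and Ifi35 (−0.015) were lowest, and Ifit2 rose from 0.45 to 0.75. The closest pairs were Tap1 with Oasl1 (0.923), Ifi44 with Ifit3 (0.882) and Psmb9 with Ddx58 (0.866), and the lowest was Ifi35 with Oasl2 (−0.293). Within roles, the median r was 0.537 among the GTPases, 0.479 among the IFIT, OAS and MX genes, 0.630 among the 3 antigen processing genes and 0.249 among the other interferon-induced genes. Members had a median within-diet SD of 0.304 against 0.243 for all genes, with Mx1 (0.599), Ifi47 (0.439), Cmpk2 (0.397) and Isg15 (0.391) the most variable. By promoter, 14 tested genes with the GAAA pair in their window had a median difference of −0.21 and a median r of 0.693, and 14 tested genes without it −0.22 and 0.640.

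**Figure D5:**
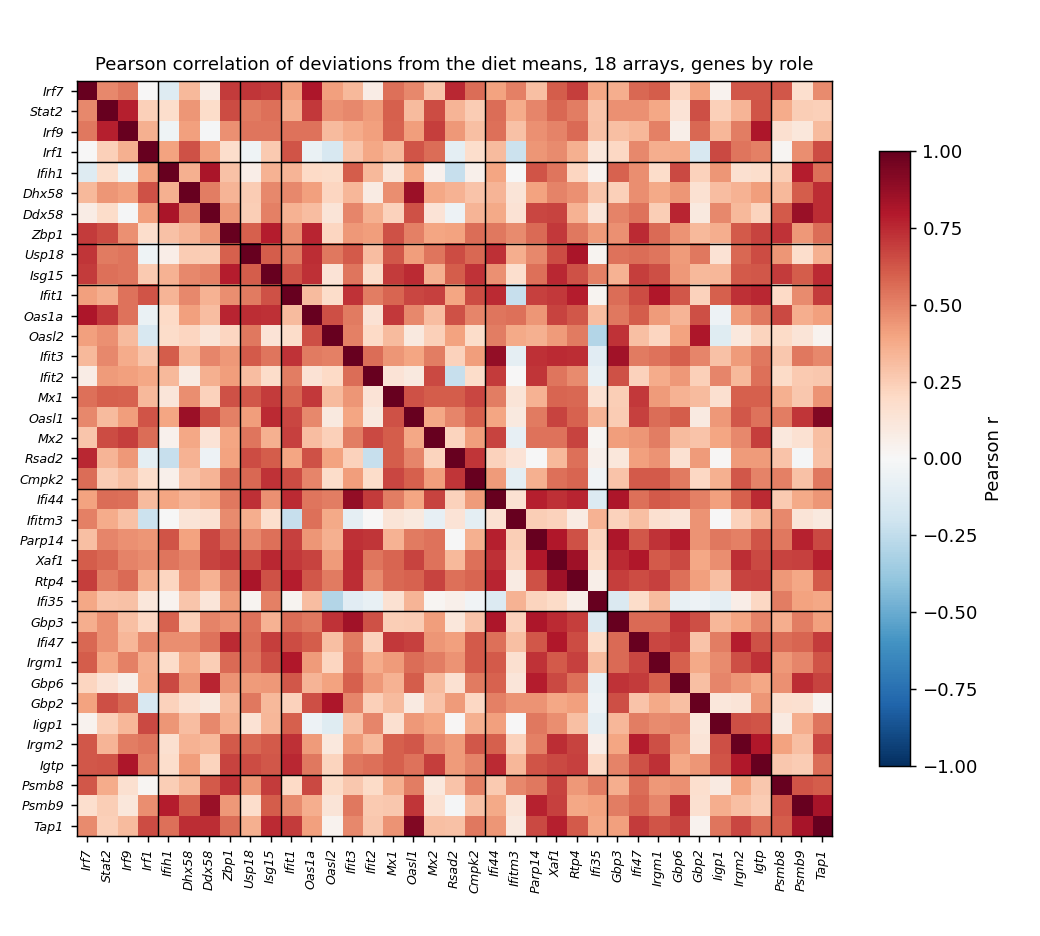
Pearson correlation (colour) between the deviations of each pair of the 37 genes from their diet means over 18 arrays, with genes grouped by role and lines between roles. Nearly all pairs are above 0 (95.5%, median 0.445); the rows of Ifi35 and Ifitm3 are the palest.

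Genes outside the list whose deviations followed the member mean most closely were ranked over all 15914 other genes tested. In order they were Tgtp2 (0.918), Eif2ak2 (0.891), Gm1966 (0.885), H2-DMb1 (0.854), Gvin1 (0.853), Zfp146 (0.837), Trim21 (0.830), Zfp62 (0.815), Arap1 (0.814, over 13 arrays), Trim34a (0.808), Zfp322a (0.807) and Tyk2 (0.806). With slide means removed, r of these genes ran from 0.533 (Arap1) to 0.910 (Eif2ak2). Tgtp2 stood at 0.793, Trim34a at 0.587 and Zfp322a at 0.545. Of the 12 genes, 5 belong to the lists of the wider pathway given next. Among all other genes the median r with the member mean was 0.0455 (−0.035 with slide means removed), and 0.628% exceeded 0.7.

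The wider pathway held no gene past the adjusted test in any list. Among 34 tested further interferon-induced genes, 29 were below 0 (51.3% of all genes), with a median of −0.12, and 8 had an unadjusted p under 0.05, all lower on linseed oil (4.15% of all genes). Parp12, an ADP-ribosyltransferase, differed by −0.29 ± 0.09 (adjusted p = 0.199). Uba7, the enzyme that activates ISG15, differed by −0.34 ± 0.11 (adjusted p = 0.220), and Oas2 by −0.51 ± 0.18 (adjusted p = 0.277). These 3 had the smallest p of that list.

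Of the interferon ligands, 4 of 19 listed genes were tested. Ifna6, Ifna9, Ifnl2 and Ifnz had no probe, and the probes of Ifnb1 and Ifng were not kept. The 4 were below 0, with Ifnab at −0.37 ± 0.13 (adjusted p = 0.288), Ifnl3 at −0.14 ± 0.13 (0.788) and Ifna5 at −0.15 ± 0.17 (0.841). All 4 probes were dim. Ifnab was well above background on 5 linseed and 8 palm arrays, Ifnl3 on 6 and 9, Ifna5 on 6 and 7. The remaining ligand was so on 6 and 10. All but Ifna5 met the filter of 8 arrays on palm oil alone, so low linseed signal could not exclude them. Receptors, kinases and STATs (9 tested) had a median of 0.02 and 0 genes with an unadjusted p under 0.05 in either direction. Within them, Jak1 was at −0.12 ± 0.07 (adjusted p = 0.599) and Ifngr2, a subunit of the interferon gamma receptor, at 0.17 ± 0.11 (0.655). Genes that lead to interferon production (12 tested) had a median of −0.003, with Irf5 at −0.38 ± 0.18 (adjusted p = 0.495), Tlr9 at −0.17 ± 0.09 (0.537) and Myd88 at 0.14 ± 0.12 (0.757). Negative regulators (9 tested) had a median of −0.09, with Irf2 at −0.18 ± 0.09 (adjusted p = 0.490), Ptpn6 at 0.16 ± 0.08 (0.541) and Samhd1 at −0.14 ± 0.08 (0.602).

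MHC class I genes and their peptide supply (11 tested) had a median of −0.09. H2-K1 differed by −0.15 ± 0.05 (adjusted p = 0.289), H2-D1 by −0.18 ± 0.08 (0.428) and H2-M3 by −0.24 ± 0.13 (0.568). MHC class II genes (8 tested), which mark antigen-presenting cells, had a median of 0.01. Their deviations followed the member mean with a median r of 0.578 (0.371 with slide means removed), and the 3 with the smallest p were H2-Oa (−0.38 ± 0.29, adjusted p = 0.723), H2-Aa (0.27 ± 0.23, 0.768) and H2-DMb1 (−0.09 ± 0.17, 0.906). Targets of NF-kappaB, the other main inflammatory transcription factor (9 of 16 tested), had a median of −0.04. Among them Nfkb1 was at 0.23 ± 0.12 (adjusted p = 0.565), Il1b at −0.23 ± 0.29 (0.854) and Ccl2 at 0.24 ± 0.31 (0.856).

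Markers of cells that make or answer interferon did not pass the test either. Hepatocyte markers (8 of 10 tested) averaged 7.43 to 8.02 on linseed and 7.59 to 8.41 on palm arrays, as a mean of log2 values. Marked spots are missing from such averages, and 5 of these 8 markers were measured in both diets on every slide. Marker by marker, 6 of the 8 had a difference above 0, with a median of 0.15. Kupffer cell and macrophage markers (11 of 12 tested) averaged 0.90 to 2.50 on linseed and 0.83 to 2.15 on palm oil and followed the member mean with a median r of 0.364, or 0.151 with slide means removed. Neutrophil markers (5 of 8 tested) averaged −3.45 to −1.54 and −2.68 to −0.38, with a median r of 0.470 (0.436 with slide means removed). Monocyte markers (3 of 6 tested; the probes of Ccr2 and Chil3 were not) averaged −0.32 to 0.82 and 0.26 to 1.39, with a median r of 0.406 (0.315 likewise). Plasmacytoid dendritic cell markers (7 of 7 tested) averaged 0.06 to 1.25 and −0.002 to 0.54, with a median r of 0.037 (0.080 likewise). T and NK cell markers (8 of 14 tested) averaged −1.27 to −0.67 and −0.89 to −0.58, with a median r of 0.13 (−0.034 likewise). For B cells only 2 of 6 markers were tested, Cd79a not among them. Conventional dendritic cell markers (3 of 6 tested) averaged −3.72 to −2.60 and −3.12 to −2.62, sinusoidal endothelial markers (8 of 8) 1.25 to 1.69 and 0.93 to 1.77, stellate cell markers (7 of 8) −1.88 to −0.44 and −1.73 to −0.85, and cholangiocyte markers (4 of 6) −2.72 to −2.07 and −2.80 to −1.59. Adipocyte markers (2 of 5 tested) averaged 0.85 to 3.53 on linseed and −1.42 to 2.37 on palm oil, with Cfd at 2.54 (adjusted p = 0.279) and a median r with the member mean of −0.18 (−0.323 likewise). Differences were below 0 in 9 of 11 Kupffer cell and macrophage markers (median −0.05) and 3 of 3 monocyte markers (−0.14). So were those of 4 of 5 neutrophil (−0.14), 7 of 8 T and NK cell (−0.12) and 4 of 4 cholangiocyte markers (−0.27). Also below 0 were 2 of 2 B cell, 5 of 7 stellate cell and 2 of 3 conventional dendritic cell markers. The count was 4 of 7 for plasmacytoid dendritic, 3 of 8 for endothelial and 0 of 2 for adipocyte markers (51.3% of all genes). The part of these cells in the members' values was not tested.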

How the data were processed

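RNA from 18 livers was read on 1-colour Agilent arrays. Per the file headers, Agilent Feature Extraction 9.5.3.1 gave the deposited intensity values; its processed signal has the background subtracted and is not scaled between arrays. A value table deposited by the authors holds log2 values of unknown scaling and served as an alternative only. Feature Extraction 9.5 and limma are named in the submitters' processing notes.

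Here, each array's 75th percentile of the processed signal over non-control spots (117.5 to 204.1 intensity units) was the reference, and values are log2 of the signal over it. Spots marked as non-uniform or population outliers (238 to 1703 per array) were left out, saturated spots (63 to 111) kept, and spots of a probe averaged. A probe was kept if well above background on at least 8 of 18 arrays and measured on at least 6 arrays per diet; where a gene had several, its brightest one was used. In 6 of 7 members with 2 kept probes both had the same sign, Iigp1 being the exception. Between 17258 and 22445 of 39429 probes were above background on an array, and the number of arrays limits the precision. Names of other probes were updated through RefSeq GRCm38.p6 (26055 by accession, 3195 by symbol, 930 by synonym, 9249 kept).

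Groups came from the sample titles, and replicates are separate mice. The diet test was limma (3.58.1, R 4.3.3): lmFit, then eBayes, with no covariates, two-sided, with Benjamini-Hochberg adjustment over all genes, checked on simulated data. Slides, taken from the array barcodes, coincided with scan groups. The 41 members, the pathway and marker lists and the tests were chosen with earlier results of these data known. Values by diet are given for Irf7, Stat2, Irf9, Isg15, Ifit1, Psmb8, the 6 members with the smallest p and the 4 with the largest within-diet SD; of each pathway list the 3 genes with the smallest p are named, and the 12 non-members most like the member mean; 1 gene chosen this way is not reported here. Members named by accession (Herc6, Ifi27, the Mpa2l probes) were added after their values could be seen. Alternatives were normexp (offset 50), other scalings, filters, probe rules, slide and replicate blocks, array weights, trend and robust eBayes, the authors' table and leaving out arrays; accession names and leaving out slides were added after seeing the data.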

Additional observations from a re-analysis of the deposited data

Results flagged for a closer look

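For 72 genes and the member mean, 146 groups of arrays (1 per diet for each) were examined for an array far from the others of its diet. The genes were the members, the genes chosen from the wider pathway and the 12 genes outside the list most like the member mean. In all, 7 such arrays were found; chance gives about 1 in 20 groups. Among the members, Ifih1 on linseed replicate 7 was 0.726, below the next array at 1.01, and Ifi44 on palm replicate 2 was −1.85, below the next at −1.41. Linseed replicate 7 was also the array with the lowest member mean. In the wider pathway, Ifna5 on linseed replicate 6 was −4.99 (next −4.08), Irf2 on palm replicate 7 was 1.45 (next 1.16), Samhd1 on linseed replicate 4 was 1.34 (next 0.993), Parp12 on palm replicate 8 was −0.881 (next −0.490), and Ccl2 on linseed replicate 7 was −3.94 (next −2.64).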

How the results depend on the processing

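The median difference of the members was below 0 in 39 of 39 other settings and −0.17 to −0.26 when 1 array was left out (normexp −0.12); within slide 1 it was 0.021. Members passed in 3 settings: 2 with slide as a fixed block, 1 without the arrays of slide 2, and 0 to 1 when 1 array was left out (1 without linseed replicate 4). The count over all genes (121) was 68 with normexp, 42 with the percentile over unmarked spots, 44 with no filter on dim probes, 200 with slide as a random block and 51 to 142 when 1 array was left out. It was 20, 39, 30, 45 and 55 without the arrays of slides 1 to 5. The replicate numbers were not taken as pairs of mice. Same-numbered arrays correlated at −0.233 to 0.491 (median 0.258) and 2 of 8 matched their own number best. Most same-numbered arrays share a slide, so these values cannot show whether the numbers pair the mice. The replicate block gave 18 genes, 0 members and a median member difference of −0.22. In that fit 14 members were lower at an unadjusted p under 0.05 (limma), against 4.23% of all genes. The median r between members (0.445) was 0.286 with slide means removed, 0.306 with normexp, 0.555 with median scaling (all genes 0.0944), 0.312 over unmarked spots (all genes 0.292) and 0.357 without slide 2. Signs turned in 6 members near 0, and in none of the other 31. Gbp2 was −0.033 with unmarked spots, −0.016 with slide as a fixed and −0.0034 as a random block, −0.035 with the replicate block, −0.075 without slide 2, −0.033 without slide 5 and −0.087 to 0.057 when 1 array was left out. Iigp1 was −0.0050 with unmarked spots, −0.018 with the mean of its probes, −0.023 in the authors' table, −0.0071 without slide 4 and −0.0095 to 0.073 when 1 array was left out. Irf1 was −0.00048 with array weights, −0.017 without slide 1, −0.023 without slide 3 and −0.011 to 0.13 when 1 array was left out. Irgm2 was −0.0086 without slide 1 and −0.0070 to 0.18 when 1 array was left out, Ifi35 −0.0078 without slide 3, and Gbp6 −0.15 to 0.019 when 1 array was left out. The cause of these moves was not tested. Dim probes (Mx1, Ifit2) are limited by signal over background.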
